A study of Mus musculus with 22 samples.

Results

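CpG-dense tiles are the 1 kb stretches of the mouse autosomes in which reduced representation bisulfite sequencing (RRBS) read the most cytosines. RRBS cuts DNA at CCGG with the enzyme MspI, so its reads gather where CpG dinucleotides are frequent, and bisulfite conversion then tells a methylated cytosine from an unmethylated one. The members were the tiles in which 40 or more CpG cytosines, with the strands counted apart, were listed in all 12 RRBS libraries. There were 4124 such tiles among 65512 autosomal tiles with any commonly listed position, and they held 248885 of the 743808 common autosomal positions. The level of a tile in a library was the mean percent methylation over its common positions.

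The libraries came from 4 groups of C57BL/6 mice with 3 RRBS libraries each. Retinal progenitor cells (RPC) were taken from embryos at day 12.5. NMDA Müller cells came from mice of 2 to 3 months that had NMDA injected into the eye 2 days before collection. Aged Müller cells came from mice of 1.5 years, and young Müller cells came from untreated mice of 2 to 3 months. All Müller cells were sorted by the green fluorescence of an Rlbp1-GFP reporter, so a cell was taken as Müller glia only by use of Rlbp1; no sort was given for the RPC. RNA was sequenced from 3 RPC, 3 NMDA Müller, 2 aged Müller and 2 young Müller samples. The study's design text calls the libraries biological replicates without saying how many animals each held.

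In mammals, DNA methylation is copied and set by the DNMT enzymes and removed through oxidation by the TET enzymes. Most CpGs of the genome are methylated, whereas the CpG islands at gene starts are usually free of methylation. The known exceptions are imprinted control regions, which carry methylation on the allele of only one parent and so read at intermediate levels, and the islands of some germline genes, which are methylated in somatic tissue. Müller glia are the main glia of the retina and arise from the RPC late in retinal development. NMDA overactivates glutamate receptors and damages inner retinal neurons, to which Müller glia respond.

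The sequences of 6 gene starts at these tiles show how differently they behaved. Each runs from 250 bases before to 50 bases after an annotated start in RefSeq (GRCm38.p6), is written 5′ to 3′ on the gene's strand, and has its CpGs in capitals. The tiles of the first 3 were called lower in RPC than in young Müller cells, the tile of Tmem267 was called higher, that of Meioc was methylated at intermediate level in every group, and that of Cd164 was nearly free of methylation.
4933428G20Rik: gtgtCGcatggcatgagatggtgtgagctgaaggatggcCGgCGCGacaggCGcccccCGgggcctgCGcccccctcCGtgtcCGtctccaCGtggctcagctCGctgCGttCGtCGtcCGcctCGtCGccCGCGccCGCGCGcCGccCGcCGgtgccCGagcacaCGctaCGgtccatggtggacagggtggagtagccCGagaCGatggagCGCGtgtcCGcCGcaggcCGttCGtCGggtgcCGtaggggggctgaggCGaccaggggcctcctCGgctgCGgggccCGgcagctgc
Fam110a: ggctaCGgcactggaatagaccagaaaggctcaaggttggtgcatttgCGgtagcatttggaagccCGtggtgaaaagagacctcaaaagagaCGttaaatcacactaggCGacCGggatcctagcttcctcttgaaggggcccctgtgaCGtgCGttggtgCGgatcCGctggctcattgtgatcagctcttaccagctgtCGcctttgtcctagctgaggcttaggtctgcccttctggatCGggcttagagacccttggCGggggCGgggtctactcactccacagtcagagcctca
Gm35369: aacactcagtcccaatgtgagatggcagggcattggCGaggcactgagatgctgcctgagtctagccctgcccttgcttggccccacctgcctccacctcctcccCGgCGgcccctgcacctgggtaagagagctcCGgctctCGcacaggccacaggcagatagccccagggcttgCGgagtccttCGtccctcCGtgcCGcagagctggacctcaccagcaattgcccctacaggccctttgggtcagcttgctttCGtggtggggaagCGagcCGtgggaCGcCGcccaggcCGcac
Tmem267: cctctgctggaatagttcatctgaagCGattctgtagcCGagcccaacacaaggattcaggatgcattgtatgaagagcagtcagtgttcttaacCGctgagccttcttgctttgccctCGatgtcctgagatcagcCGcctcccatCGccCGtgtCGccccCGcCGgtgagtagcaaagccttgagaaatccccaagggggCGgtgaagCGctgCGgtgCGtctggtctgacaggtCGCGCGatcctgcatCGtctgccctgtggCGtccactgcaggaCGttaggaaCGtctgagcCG
Meioc: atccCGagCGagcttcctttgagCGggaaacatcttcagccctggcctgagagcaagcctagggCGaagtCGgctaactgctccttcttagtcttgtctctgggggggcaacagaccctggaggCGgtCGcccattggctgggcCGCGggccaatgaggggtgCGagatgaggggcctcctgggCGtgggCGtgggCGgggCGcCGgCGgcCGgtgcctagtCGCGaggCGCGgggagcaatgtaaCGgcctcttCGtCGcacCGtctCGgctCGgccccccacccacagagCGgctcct
Cd164: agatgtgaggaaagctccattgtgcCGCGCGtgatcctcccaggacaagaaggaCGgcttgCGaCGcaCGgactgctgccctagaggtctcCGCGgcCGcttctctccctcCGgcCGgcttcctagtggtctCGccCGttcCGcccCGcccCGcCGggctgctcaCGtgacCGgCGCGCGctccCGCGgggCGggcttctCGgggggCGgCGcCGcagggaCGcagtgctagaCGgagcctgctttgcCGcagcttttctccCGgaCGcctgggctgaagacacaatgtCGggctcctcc

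The 4933428G20Rik window (chr11:97500291-97500590, minus strand) held 42 CpGs, and its 35 measured positions averaged 2.23% ± 0.892 in RPC, 34.5% ± 6.06 in NMDA Müller, 37.6% ± 9.79 in aged Müller and 43.3% ± 7.79 in young Müller cells (SD, n = 3 each). The Fam110a window (chr2:151973345-151973644, minus strand) held 14 CpGs and stood at 3.01% ± 0.594, 7.13% ± 1.46, 15.1% ± 1.50 and 19.1% ± 2.35 in the same order of groups. The Gm35369 window (chr16:18588549-18588848, plus strand), which shares its tile with a start of Tbx1, held 15 CpGs and stood at 1.403% ± 0.292 in RPC, against 22.6% ± 0.942, 21.5% ± 1.88 and 20.2% ± 1.38 in NMDA, aged and young Müller cells. The Tmem267 window (chr13:119487836-119488135, plus strand) held 22 CpGs and stood at 23.4% ± 3.96 in RPC, against 5.12% ± 2.26, 1.76% ± 1.97 and 3.50% ± 1.49. Only 136 of its 300 bases lay in the dense tile. The Meioc window (chr11:102665335-102665634, plus strand) held 28 CpGs and stood at 51.1% ± 6.16, 47.9% ± 5.91, 48.0% ± 3.41 and 56.5% ± 5.41. The Cd164 window (chr10:41519250-41519549, plus strand) held 36 CpGs and stood at 1.48% ± 0.813, 0.383% ± 0.333, 0.259% ± 0.253 and 2.96% ± 0.169. These windows therefore ran between nearly unmethylated and intermediate levels at CpG counts of 14 to 42 per 300 bases.

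Gene starts in dense tiles were rich in CpG, as the choice of tiles by CpG positions entails. The 2702 promoter windows whose start lay in a dense tile had a median of 28 CpGs per 300 bases (range 1 to 67) and 66.3% GC, against 7 CpGs and 53.0% GC over all 31396 autosomal windows. The MspI site CCGG, which RRBS selects for, was present in 96.9% of windows with a start in a dense tile and in 53.5% of all windows. The GC box, read as GGGCGG on either strand, was found in 78.1% of the dense-tile windows and 36.0% of all windows. The ETS core CCGGAAG was found in 18.1% and 9.004%, the E-box CACGTG in 10.8% and 7.14%, the CRE TGACGTCA in 3.74% and 1.83%, and the NRF1 motif in 2.48% and 0.968%. All of these contain a CpG, whereas the CCAAT box CCAAT, which has none, was found in 33.8% and 37.3%. The ETS core also contains the MspI site, and these motif matches are letters in a window and not measured binding.

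Depth and cell identity were as follows. The median coverage of a dense-tile position was 52 to 152 reads per library, and the summed reads of a dense tile had medians of 3312.5 to 10229.5 per library and never fell below 458. In the RNA, the summed level of 8 Müller glia markers was 769.6 to 858.8 library-scaled counts (CPM) in RPC, 9733 to 13230 in NMDA Müller, 37300 to 38180 in aged Müller and 39380 to 47890 in young Müller cells. The 8 progenitor markers summed to 7236 to 7570 CPM in RPC and to 703.4 to 1317 in the Müller groups. The 4 rod markers Sag, Gnat1, Nrl and Pde6b summed to 2.00 to 2.27 CPM in RPC, with Pde6b at 0 in all 3 libraries, against 2217 to 3582 in NMDA, 1582 to 2219 in aged and 2545 to 4245 in young Müller cells, where all 4 were above 0 in every library. The 5 microglia markers summed to 89.1 to 727.7 CPM in NMDA Müller cells, against 0 to 48.5 in the other groups. The 5 inner retinal neuron markers summed to 18.7 to 57.7 CPM across the 10 libraries. These markers were read in RNA from separate libraries, and their part in the methylation differences was not tested. In bulk RNA, fewer cells of a type and less RNA per cell cannot be told apart.

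Nearly all dense tiles were almost free of methylation in every group. The median level over the 12 libraries was under 10% in 3954 tiles, and 2584 of these were under 1%. A level under 10% in each of the 12 libraries was found in 3818 of 4124 tiles (92.6%). At the other end, 25 tiles (0.606%) were over 80% in all 12 libraries, and 3 tiles stayed between 40% and 60% in all of them. The share of tiles under 10% in all libraries was 14.9% at 5 to 9 positions, 41.7% at 10 to 19, 76.9% at 20 to 39 and 92.6% at 40 or more, while the share over 80% went the other way, at 28.7%, 21.1%, 6.23% and 0.606%. Tiles just outside the limit, with 38 and 39 positions, had median levels of 0.876% and 0.980%, and those just inside, with 40 and 41, had 0.821% and 1.03%.

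**Figure D1:**
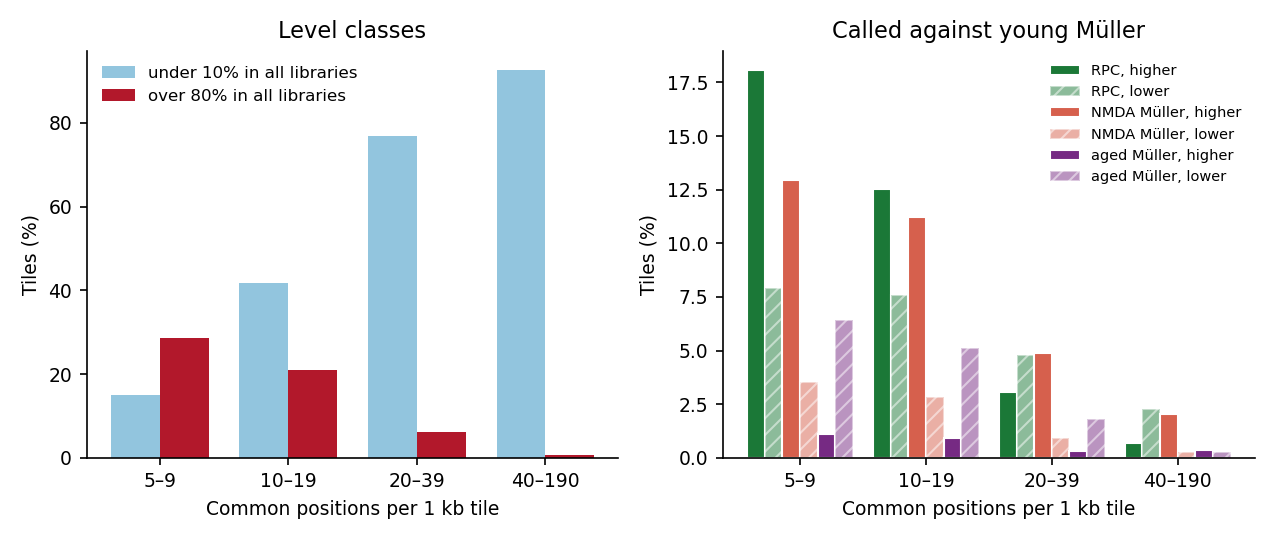
Share of autosomal 1 kb tiles (%) by the number of common positions per tile; left, tiles under 10% or over 80% methylated in all 12 libraries, and right, tiles called higher (solid) or lower (hatched) than young Müller cells in RPC, NMDA Müller and aged Müller cells. The densest class is 92.6% unmethylated by this measure and has the smallest called shares except for aged Müller gains, which are 0.305% at 20 to 39 positions and 0.388% at 40 or more. A tile under 5% in young Müller cells cannot be called lower.

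Within a tile the measured CpGs spanned a median of 517 bp, and they had much the same level only where the tile was low. The median tile held 54 common positions, and the densest held 190, at the start of Pde8a. Of 152711 CpGs in dense tiles, 96174 (63.0%) were read on both strands, and the strands differed by a median of 0.587 points and by no more than 5 points in 98.1% of these CpGs. Because most dense tiles were low, the strands had little room to differ. The SD over positions within a tile had a median of 1.80 points where the tile's median level was under 10% and 13.4 points in the 149 tiles with a median level of 10% to 90%. The 5 densest tiles were at the starts of Pde8a, a cyclic AMP phosphodiesterase (190 positions), Foxq1, a forkhead transcription factor (185), and Cd164, a sialomucin (179), at chr17:39844000-39844999 (177) and within Lactbl1 (177). Those of Pde8a, Foxq1 and Cd164 were under 3.0% in every library. The chromosome 17 tile received 292311 to 819573 reads per library, against 675 to 65796 at each of the other tiles named by rule, and stood at 34.4% ± 8.04 in RPC, 25.3% ± 4.87 in NMDA Müller, 19.3% ± 3.31 in aged Müller and 18.2% ± 6.22 in young Müller cells. By the quasi-binomial model described below it was called higher than young in RPC (16.2 points, adjusted p = 0.0024). It was also called higher in NMDA Müller cells (7.15 points, adjusted p = 0.0081), whose libraries overlapped the young ones. The cause of its depth was not tested, nor whether its reads came from this place alone.

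Dense tiles lay mostly at gene starts. A start was annotated within 1000 bp of 3539 tiles (85.8%), 489 were inside a gene away from its start, and 96 were in neither, against 41.8%, 34.4% and 23.8% of the other tested tiles. Of 3278 autosomal protein-coding genes with a start at a dense tile, 3082 (94.0%) passed the filter for expression in the RNA libraries, against 70.9% of all 18788 such genes and 91.3% of 6998 genes with a start at a tested but less dense tile. Among dense-tile genes, the share that passed was 97.9% where the tile was under 1%, 85.6% from 1% to 10%, 24 of 41 (58.5%) from 10% to 40%, and 6 of 8 (75.0%) above that.

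The low level of these tiles differed between the groups as a whole. The median dense-tile level was 0.562%, 1.72% and 1.23% in the RPC libraries, 0.647%, 0.685% and 0.672% in NMDA Müller, 0.373%, 0.411% and 0.349% in aged Müller and 3.37%, 3.39% and 2.54% in young Müller libraries. The young libraries were the highest and did not overlap any other group. Relative to young Müller cells, 96.5% of dense tiles were lower in RPC, 93.2% in NMDA Müller and 96.6% in aged Müller cells, against 65.8%, 60.9% and 75.0% of all tested tiles. The median difference of a dense tile was -1.84 points in RPC, -2.22 in NMDA Müller and -2.53 in aged Müller cells, and over all tested tiles it was -1.50, -1.36 and -2.31. The percent of methylated reads at 54 commonly listed mitochondrial positions moved with it: 2.25%, 5.73% and 3.49% in RPC, 1.57%, 1.96% and 2.02% in NMDA Müller, 0.783%, 0.956% and 0.731% in aged Müller and 9.94%, 9.78% and 7.62% in young Müller libraries. The part of this common shift in the low dense-tile levels was not tested.

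**Figure D2:**
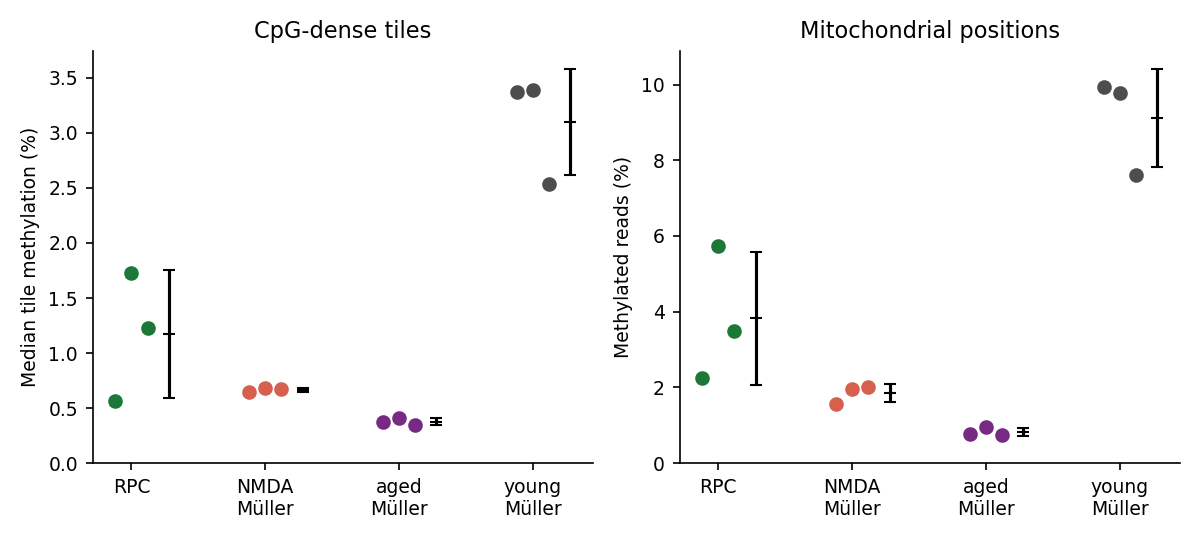
Left, median methylation (%) of the 4124 CpG-dense tiles in each library; right, percent of methylated reads at 54 mitochondrial positions; points are libraries, and bars show mean ± SD (n = 3 each). Young Müller libraries sit at 2.54% to 3.39% on the left and 7.62% to 9.94% on the right, above all libraries of the other groups in both.

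Because of this shift, a tile was called only where its adjusted p was under 0.05 and its group means differed by at least 5 points. The p came from a quasi-binomial model of methylated and unmethylated reads per tile, adjusted by Benjamini-Hochberg over all 36863 tiles with 5 or more positions. In all, 238 dense tiles (5.77%) were called across the 4 groups, against a background of 26.5% of all tested tiles. A tile under 5% in the reference group cannot be called lower. Of the 4124 dense tiles, 3826 had a median level under 5% over the 12 libraries. The low called shares of dense tiles therefore cannot be read as greater stability than the background. Of the dense tiles at gene starts 3.62% were called, of those inside genes 19.4%, and of those in neither 15.6%. In the other tested tiles these shares were 20.6%, 39.7% and 28.7%. The 3818 tiles under 10% in all libraries gave 31 of the 238 calls. With no minimum difference, the same p marked 3497 dense tiles in RPC, 3554 in NMDA Müller and 3727 in aged Müller cells against young Müller cells (background 46.1%, 44% and 43.6%). It marked 2434 between RPC and aged, 509 between RPC and NMDA and 199 between NMDA and aged Müller cells (background 35.5%, 18.4% and 9.5%).

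Dense tiles called in RPC against young Müller cells were more often lower than higher. Called lower were 93 tiles (background 6.64% of all tested tiles; 2.26% of dense tiles) and called higher 29 (background 11.9%; 0.703% of dense tiles). With the median dense-tile level of each library taken off, an alternative added after the data were seen, the balance was 61 lower and 43 higher. The lower tiles had a median difference of -8.15 points and a median of group means of 2.83% in RPC and 11.8% in young Müller cells. The higher ones had a median difference of 16.1 points, with medians of 42.9% in RPC and 18.1% in young Müller cells. A difference of 20 points or more was seen in 15 of the lower and 10 of the higher tiles. In all 122 were called (background 18.5%; 2.96% of dense tiles), and the groups did not overlap in 119 of them.

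The largest losses were inside genes or next to starts within other genes. At chr5:143253000-143253999, inside Zfp316, a zinc finger protein gene, the tile stood at 9.18%, 9.02% and 9.88% in RPC libraries, against 54.0%, 55.5% and 53.1% in young Müller libraries. All RPC libraries were below all young ones at 70 of its 71 positions, and the difference was -44.9 points (adjusted p = 2.9e-05). NMDA and aged Müller cells averaged 53.3% ± 2.92 and 56.8% ± 3.58 there (SD, n = 3 each). Inside Mn1, a transcriptional coregulator gene (chr5:111419000-111419999), the level was 4.24%, 5.80% and 5.92% in RPC, against 38.1%, 50.6% and 49.7% in young Müller libraries (difference -40.8 points, adjusted p = 1.1e-09). At the start of the non-coding 4933428G20Rik, within Arhgap23, a GTPase-activating protein gene (chr11:97500000-97500999), it was 2.54%, 3.15% and 1.87% in RPC, against 32.9%, 49.3% and 46.7% in young Müller libraries (-40.4 points, adjusted p = 1.2e-08). These tiles separated RPC from all 9 Müller libraries, whatever the age or treatment.

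In Ltbp3, which encodes a binding protein of latent TGF-beta (chr19:5751000-5751999), RPC libraries stood at 10.7%, 14.04% and 10.7%, against 52.2%, 53.8% and 48.8% in young Müller libraries (-39.8 points, adjusted p = 1.2e-09). At the start of Mir5046, inside the kinase gene Rps6ka4 (chr19:6830000-6830999), they stood at 0.695%, 1.27% and 0.987%, against 34.9%, 42.3% and 44.3% (-39.5 points, adjusted p = 7.5e-11). There every RPC library was below every young library at all 52 positions. Inside Dact3, an antagonist of Wnt signalling (chr7:16885000-16885999), RPC libraries stood at 29.1%, 30.5% and 29.5%, against 62.1%, 68.6% and 64.9% in young Müller libraries (-35.5 points, adjusted p = 1.1e-07). The Dact3 positions themselves ranged widely in RPC, with group means of 3.06% to 82.6%.

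Tiles at the starts of listed retinal genes were low in every group. Dense tiles lay at the starts of 4 of 20 listed Müller glia genes, 13 of 31 eye-field and progenitor genes, 20 of 41 neurogenic and retinal neuron genes and 9 of 20 Notch pathway genes. Their 4, 14, 23 and 10 tiles were all under 10% in all 12 libraries, and none was called in RPC, NMDA Müller or aged Müller against young Müller cells, beside 2.96%, 2.33% and 0.655% of all dense tiles, so that few or no calls are the background for lists of this size. The median levels of these lists over tiles were 0.924%, 1.08%, 1.03% and 0.852%, beside 0.809% over all dense tiles. The 55 tiles of listed developmental homeobox and Polycomb target genes were under 10% everywhere except at Tbx1, a T-box transcription factor gene. Its tile (chr16:18588000-18588999) stood at 1.13%, 2.13% and 1.59% in RPC, against 19.8%, 19.97% and 18.03% in young Müller libraries (-17.6 points, adjusted p = 6.1e-10). NMDA and aged Müller cells averaged 22% ± 2.54 and 21.0% ± 1.37 there. The tiles of 6 DNA methylation machinery genes, 4 pluripotency genes and 5 housekeeping genes were also under 10% everywhere, with no call against young Müller cells.

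At Hoxd11, a posterior homeobox gene (55 positions), the first RPC library stood apart. The tile was at 23.7%, 1.11% and 0.983% in RPC libraries, against 0.693%, 0.615% and 0.608% in aged Müller libraries, and was called higher in RPC than in aged Müller cells. Without the first RPC library the group means differed by less than 5 points, which ends the call. It was not called against young Müller cells, at 3.89%, 3.26% and 1.82%.

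The clustered gamma protocadherins, cell adhesion genes whose variable exons each have a promoter, had 3 tiles called lower in RPC. These were 3 of 8 dense tiles at protocadherin starts, beside 2.26% of all dense tiles, and lie on chromosome 18. Of the 8, 3 were under 10% in all libraries, against 92.6% of all dense tiles. Of the 278 dense tiles not under 10%, at 40% to 60% or over 80% in all libraries, 85 were called lower in RPC. The 3 of 8 can therefore not be read as particular to protocadherins. At Pcdhga12 the level was 16.7%, 20.5% and 16.8% in RPC libraries, against 39.1%, 35.2% and 37.7% in young Müller libraries (-19.4 points, adjusted p = 1.0e-08). At Pcdhga9 it averaged 30.1% ± 2.80 in RPC and 44.0% ± 1.68 in young Müller cells (SD, n = 3 each), and at Pcdhga10 36.8% ± 1.37 and 43.8% ± 4.51, with adjusted p-values of 0.0006 and 0.0018. None of these tiles was called in NMDA or aged Müller cells.

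The largest gain in RPC was inside Tbc1d16, a Rab GTPase-activating protein gene (chr11:119198000-119198999). The tile stood at 81.6%, 73.9% and 80.1% in RPC libraries, 46.2%, 49.9% and 43.7% in NMDA Müller, 16.8%, 24.8% and 10.6% in aged Müller and 11.1%, 13.6% and 10.7% in young Müller libraries. The 3 RPC libraries were above the 3 NMDA libraries, which were above all aged and young ones, while aged and young overlapped. The difference from young Müller cells was 66.7 points in RPC (adjusted p = 4.5e-08) and 34.8 points in NMDA Müller cells (adjusted p = 0.00025). RPC was also called higher than NMDA Müller cells (31.9 points, adjusted p = 0.0002), and NMDA Müller higher than aged Müller cells (29.2 points, adjusted p = 0.00037). All RPC libraries were above all young ones at 44 of 49 positions, and all NMDA libraries were at 38.

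**Figure D3:**
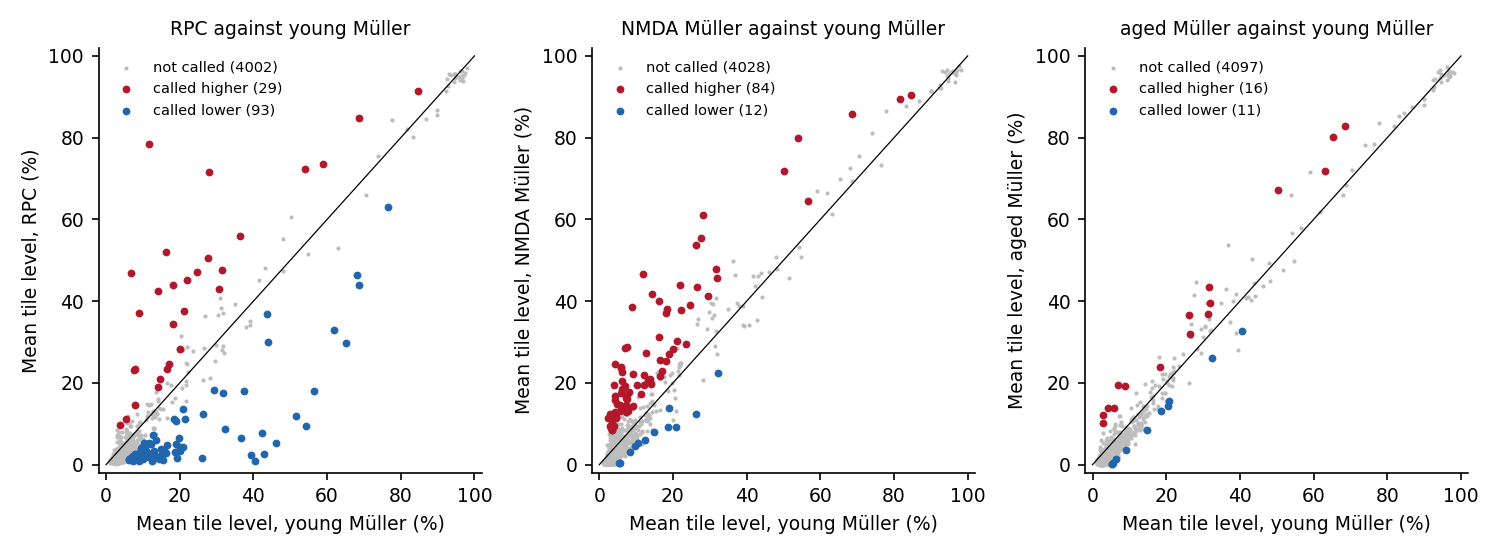
Mean level (%) of each of the 4124 CpG-dense tiles in RPC, NMDA Müller and aged Müller cells (vertical axes) against young Müller cells (horizontal axis); the line marks equal levels. RPC has 29 tiles called higher and 93 lower, NMDA Müller 84 and 12, and aged Müller 16 and 11.

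Among differences of 5 points or more, NMDA Müller cells were mostly higher than young Müller cells. Called higher were 84 dense tiles (background 9.81%; 2.04% of dense tiles) and called lower 12 (background 2.51%; 0.291% of dense tiles), or 25 lower without the third young library. With no minimum difference the balance was the opposite, at 123 higher and 3431 lower, and with the median of each library taken off it was 114 higher and 4 lower. The higher tiles had medians of group means of 20.6% in NMDA Müller and 7.95% in young Müller cells, and 42 of them were inside genes away from a start. Next to Tbc1d16, the largest gain on tiles whose groups did not overlap was at Mest, described with the imprinted genes. At Gm13140, within the zinc finger gene Zfp993 (chr4:146942000-146942999), NMDA Müller libraries stood at 53.7%, 67.0% and 45.6%, against 16.1%, 29.6% and 37.02% in young Müller libraries (27.9 points, adjusted p = 0.0015). Inside Srrm3, a splicing regulator of neural exons (chr5:135868000-135868999), they stood at 23.9%, 22.4% and 27.7%, against 5.71%, 3.19% and 3.66% (20.5 points, adjusted p = 1.5e-05). RPC averaged 1.17% ± 0.192 at Srrm3 (SD, n = 3). Inside Lactbl1 (chr4:136637000-136637999) they stood at 19.02%, 17.2% and 21.3%, against 7.95%, 8.80% and 4.50% (12.1 points, adjusted p = 0.00022).

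The tile at annotated starts of Tmem267 and the non-coding 3110070M22Rik (chr13:119488000-119488999) was higher in both RPC and NMDA Müller cells, although the Tmem267 start window shown above stood at 5.12% ± 2.26 in NMDA and 3.50% ± 1.49 in young Müller cells (SD, n = 3 each). That window had only 136 of its 300 bases in the tile. Another Tmem267 window and the 3110070M22Rik window, wholly inside the tile, had 0 measured positions. The tile stood at 57.1%, 46.0% and 52.7% in RPC, 40.4%, 42.9% and 36.9% in NMDA Müller, 18.97%, 15.8% and 21.2% in aged Müller and 5.99%, 26.1% and 16.7% in young Müller libraries. The differences from young Müller cells were 35.7 points in RPC (adjusted p = 2.5e-05) and 23.8 points in NMDA Müller cells (adjusted p = 0.00025). RPC and NMDA Müller libraries lay above all aged and young libraries.

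Losses in NMDA Müller cells were fewer, and at several tiles the aged and RPC libraries were lower too. At the start of Fam110a (chr2:151973000-151973999) the level was 3.11%, 5.25% and 4.76% in RPC, 11.2%, 9.57% and 7.11% in NMDA Müller, 14.6%, 16.2% and 15.7% in aged Müller and 20.8%, 22.2% and 19.6% in young Müller libraries. No library of one group overlapped another, and the differences from young Müller cells were -16.5 points in RPC (adjusted p = 1.7e-08), -11.6 in NMDA Müller (adjusted p = 0.00011) and -5.39 in aged Müller cells (adjusted p = 0.0037). The aged difference was under 5 points without the second young library (-4.71) or the first aged library (-4.94). At the non-coding 4930550C17Rik (chr13:56222000-56222999) NMDA Müller libraries stood at 14.7%, 12.8% and 9.83%, against 25.9%, 27.9% and 24.8% in young Müller libraries (-13.7 points, adjusted p = 0.00043). Inside Disp3, of the Dispatched family (chr4:148271000-148271999), they stood at 23.2%, 23.8% and 20.1%, against 30.3%, 32.2% and 34.6% (-9.99 points, adjusted p = 0.00031). At chr5:147191000-147191999, in no annotated gene, they stood at 10.96%, 7.06% and 5.69%, against 14.7%, 16.1% and 13.96% (-7.00 points, adjusted p = 0.00091), but the difference was -4.90 points with the median of each library taken off. The shared young libraries enter all of these comparisons.

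**Figure D4:**
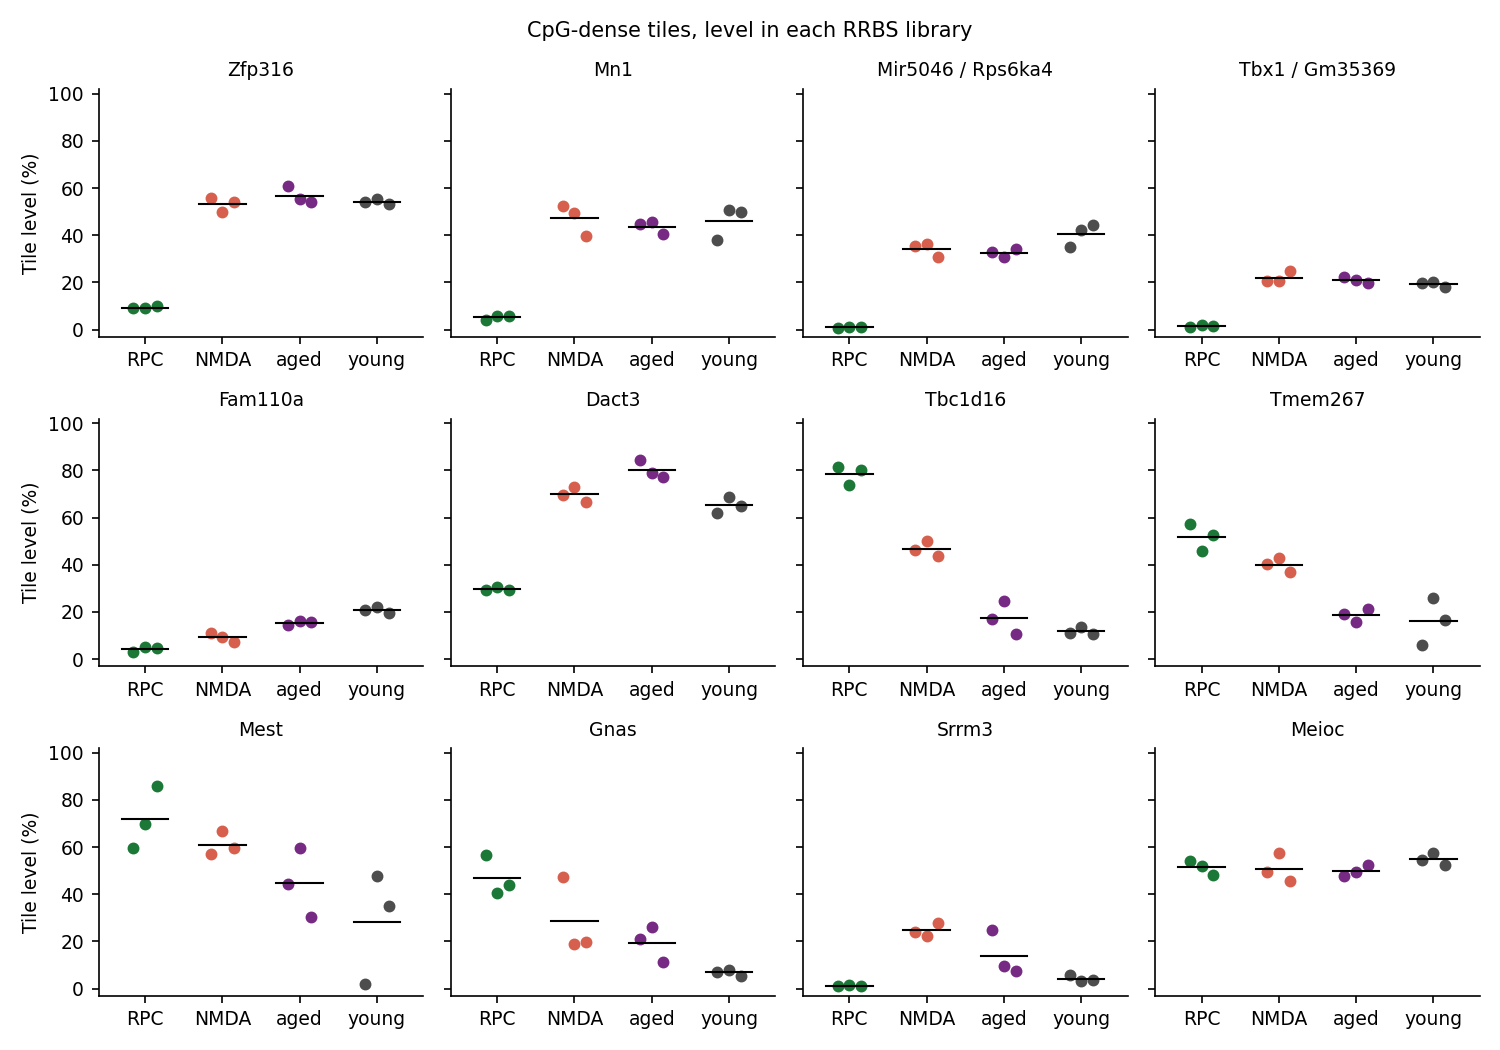
Level (%) of 12 CpG-dense tiles in each RRBS library; points are libraries, lines are group means, and the Gnas panel shows chr2:174328000-174328999. Zfp316, Mn1, Mir5046 and Tbx1 are low in RPC alone, Tbc1d16 and Tmem267 are high in RPC and NMDA Müller cells, and Meioc stays between 45.5% and 57.4% in every library.

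Aged Müller cells differed from young Müller cells at few dense tiles. Called higher were 16 (background 0.849%; 0.388% of dense tiles) and called lower 11 (background 4.54%; 0.267% of dense tiles). In all 27 were called (background 5.39%; 0.655% of dense tiles), and the groups did not overlap in 17 of them. Single libraries moved these counts: 27 were higher without the second young, 10 without the first aged and 7 without the second aged library, and 40 were lower without the third young and 6 without the first aged library. Dact3 had the largest gain among tiles whose groups did not overlap, at 84.3%, 79.0% and 77.1% in aged Müller, against 62.1%, 68.6% and 64.9% in young Müller libraries (14.9 points, adjusted p = 8.2e-05). NMDA Müller cells, at 69.8% ± 3.22 (SD, n = 3), were not called against young Müller cells there. At the start of Purb, a DNA- and RNA-binding protein gene (chr11:6475000-6475999), aged Müller libraries stood at 16.3%, 11.3% and 8.93%, against 3.76%, 2.48% and 2.12% in young Müller libraries (9.39 points, adjusted p = 0.019; 0.053 without the third young and 0.068 without the second aged library). Srrm3 stood at 24.8%, 9.41% and 7.63% in aged Müller, against 5.71%, 3.19% and 3.66% in young Müller libraries (9.74 points, adjusted p = 0.023). The first aged library was high at Srrm3, and without it the difference was 4.33 points (adjusted p = 0.16). The Srrm3 call was also lost without the second young, the third young or the second aged library (adjusted p = 0.057 to 0.075).

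The first young library stood apart from the others at several tiles called in aged Müller cells. At Sfi1, a centrosomal protein gene (chr11:3193000-3193999), aged Müller libraries stood at 81.7%, 84.9% and 81.7%, against 52.7%, 77.3% and 76.0% in young Müller libraries (14.1 points, adjusted p = 0.014). Without the first young library the difference was 6.11 points (adjusted p = 0.0039), and without the second aged library it was 13.03 points (adjusted p = 0.077). At Hsp90b1, which encodes an endoplasmic reticulum chaperone (chr10:86705000-86705999), aged Müller libraries stood at 0.0808%, 0.281% and 0.142%, against 11.2%, 3.10% and 1.84% in young Müller libraries (-5.22 points, adjusted p = 6.3e-05), and without the first young library the difference was -2.30 points, under the 5 points a call needs. At Gm52551, within St6galnac6 (chr2:32607000-32607999), they stood at 3.95%, 3.61% and 3.20%, against 17.0%, 5.09% and 4.84% (-5.39 points, adjusted p = 0.041), and without that library the difference was -1.38 points (adjusted p = 0.22). Leaving out any aged library or the second NMDA library also ended the Gm52551 call (adjusted p = 0.052 to 0.16). The losses at Mir5046 (-7.87 points, adjusted p = 0.0018) and at chr5:147191000-147191999 (-6.48 points, adjusted p = 0.00012) were also called without it. Both aged calls were lost with limma on log2 ratios of reads (adjusted p = 0.17 at Mir5046 and 0.062 at the other tile), as were those at Fam110a, Gm52551, Srrm3 and Purb (adjusted p = 0.21, 0.31, 0.072 and 0.31). With the median of each library taken off, Mir5046 had an adjusted p of 0.053 and Sfi1 of 0.067, and the differences at the chromosome 5 tile (-4.11), Fam110a (-3.18), Hsp90b1 (-2.58) and Gm52551 (-2.86) were under 5 points. With the median dense-tile level of each library taken off, 24 tiles were called higher in aged Müller cells and 0 lower.

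Starts of listed imprinted genes were in 6 of the 29 higher tiles in RPC, 5 of the 84 in NMDA Müller and 1 of the 16 in aged Müller cells, and a tile inside Grb10, away from its start, was called higher in all 3. Dense tiles lay at the starts of 17 of 46 listed imprinted genes, in 18 tiles, so the called ones were 6, 5 and 1 of 18, beside 0.703%, 2.04% and 0.388% of all dense tiles. Of the 18, 10 were under 10% in all libraries. Of all dense tiles 92.6% were, and 0 of those were called higher against young Müller cells. Of the 278 dense tiles not under 10%, at 40% to 60% or over 80% in all libraries, 28, 83 and 16 were called higher in RPC, NMDA and aged Müller cells. At Commd1, Nnat, Mest, Cdkn1c and the Gnas tile at chr2:174285000-174285999, the first young library had the lowest level of all 12 libraries.

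At Mest, which is expressed from the paternal allele (chr6:30738000-30738999), the level was 59.4%, 69.8% and 85.9% in RPC, 57.0%, 66.6% and 59.7% in NMDA Müller, 44.4%, 59.6% and 30.2% in aged Müller and 1.78%, 47.6% and 34.8% in young Müller libraries. The differences from young Müller cells were 43.7 points in RPC (adjusted p = 0.0063) and 33.0 points in NMDA Müller cells (adjusted p = 0.015). Without the first young library they were 30.5 points (adjusted p = 0.02) and 19.9 points (adjusted p = 0.062), so that the NMDA call was lost. The NMDA call was also lost without the second NMDA library (adjusted p = 0.13), and the RPC call without the third RPC library (adjusted p = 0.053). At a start in the Gnas locus (chr2:174328000-174328999) it was 56.5%, 40.5% and 43.9% in RPC, 47.3%, 19.1% and 19.6% in NMDA Müller, 21.1%, 25.9% and 11.1% in aged Müller and 7.16%, 8.02% and 5.38% in young Müller libraries. Here the young libraries were close together and below the other 9, with differences of 40.1 points in RPC (adjusted p = 1.6e-06), 21.8 in NMDA Müller (adjusted p = 0.0017) and 12.5 in aged Müller cells (adjusted p = 0.0085). The aged call was lost without the second aged library (9.23 points, adjusted p = 0.072).

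At the other Gnas tile (chr2:174285000-174285999) RPC averaged 42.4% ± 9.44, NMDA Müller 41.7% ± 6.62, aged Müller 19.6% ± 8.11 and young Müller cells 14.2% ± 9.45 (SD, n = 3 each). RPC and NMDA Müller cells were called against young Müller cells there (28.2 and 27.5 points, adjusted p = 0.0006 and 0.0015). Inside Grb10, an imprinted adaptor that dampens insulin signalling (chr11:12025000-12025999), the level was 48.5%, 28.9% and 34.0% in RPC, 47.9%, 33.1% and 34.9% in NMDA Müller, 22.6%, 25.1% and 10.2% in aged Müller and 3.00%, 17.6% and 6.08% in young Müller libraries. The differences were 28.3 points in RPC (adjusted p = 1.0e-05), 29.8 in NMDA Müller (adjusted p = 0.00012) and 10.4 in aged Müller cells (adjusted p = 0.0095). Nnat, Cdkn1c and the Commd1 tile that also holds Zrsr1 were called higher in RPC as well, and Nnat also in NMDA Müller cells.

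Igf2r, the receptor that clears IGF2, was the listed imprinted gene called in NMDA Müller but not in RPC. Its tile (chr17:12769000-12769999) stood at 3.61%, 14.6% and 15.9% in NMDA Müller, against 2.64%, 2.03% and 2.49% in young Müller libraries (9.0 points, adjusted p = 0.00041). RPC stood at 0.937%, 3.54% and 1.41%, and NMDA Müller cells were also called against RPC. The first NMDA library was close to the young ones.

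The tiles that kept an intermediate level in every library were few and were not called. At Meioc, a gene of meiosis (chr11:102665000-102665999), the groups averaged 51.5% ± 2.95 in RPC, 50.8% ± 6.06 in NMDA Müller, 49.9% ± 2.42 in aged Müller and 54.8% ± 2.52 in young Müller cells (SD, n = 3 each). At Rbmxl2, a testis RNA-binding protein gene (chr7:107209000-107209999), they averaged 47.4% ± 2.99, 47.8% ± 8.30, 44.9% ± 1.43 and 48.1% ± 5.11, and at chr14:14309000-14309999 55.3% ± 1.50, 50.8% ± 5.83, 49.3% ± 2.89 and 48.0% ± 7.12. Positions within the Meioc tile had group means of 15.6% to 97.7%, so the tile's middle level was an average over unequal positions. The 5 tiles with the highest median level were inside Chst9, Plppr4, Nubpl, Filip1 and Itpr1, with medians of 96.1% to 97.0%, and none was called.

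**Figure D5:**
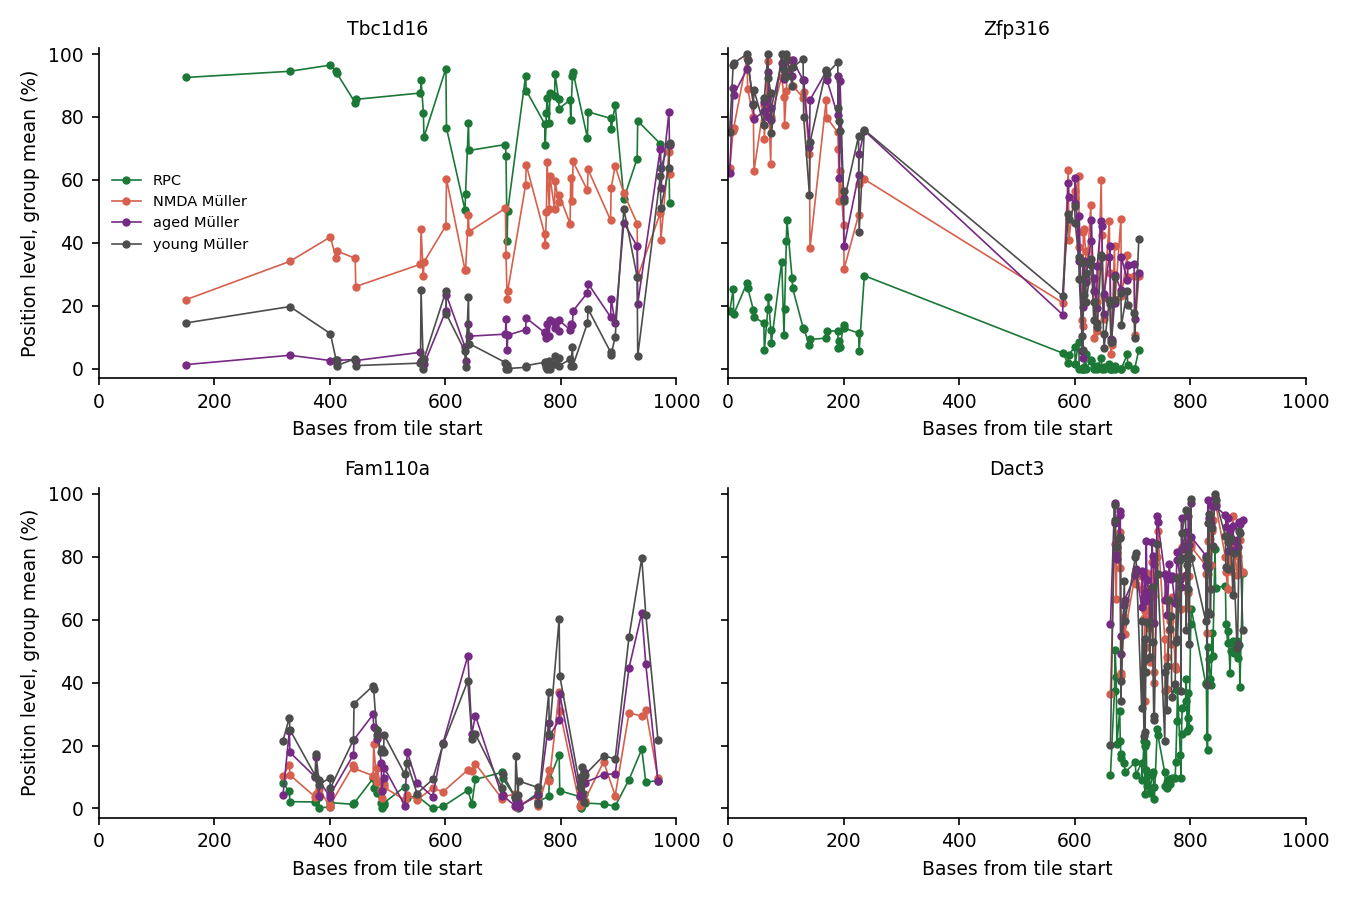
Group mean methylation (%) at each common position of 4 CpG-dense tiles, by distance in bases from the start of the tile; lines join neighbouring positions and cross stretches with none. RPC lies above the other groups over most of Tbc1d16 and below them over Zfp316 and most of Dact3. In Fam110a all RPC libraries were below all young libraries at 34 of 51 positions.

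RPC was also compared directly with aged and NMDA Müller cells. Against aged Müller cells 43 dense tiles were called higher and 81 lower in RPC (background 12.6% and 4.67%). Against NMDA Müller cells 9 were called higher and 149 lower in RPC (background 7.7% and 7.45%), with medians of group means of 2.52% in RPC and 12.9% in NMDA Müller cells for the lower tiles. NMDA Müller cells had 62 tiles called higher and 4 lower than aged Müller cells (background 7.83% and 0.195%). The 4 lower tiles were inside Ccdc177 and Dact3 and at the starts of 4930550C17Rik and Fam110a, which are named here because there were so few. Over the 149 tiles of intermediate median level the mean level was 26.4% to 27.7% in RPC, 34.0% to 34.2% in NMDA Müller, 29.3% to 30.9% in aged Müller and 26.1% to 32.7% in young Müller libraries.

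Few called tiles had a dense neighbour that was also called. Of the 4124 tiles, 588 lay next to another dense tile, in 289 runs of at most 6. In RPC against young Müller cells, 18 called tiles had a dense neighbour, and 8 of these had one called the same way and 0 the other way. The counts were 10, 6 and 0 in NMDA Müller and 4, 2 and 0 in aged Müller cells. Each tile of a pair was counted, and few dense tiles were called at all (in RPC 2.26% lower and 0.703% higher). The lack of opposite neighbours can therefore not be read as a result.

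RNA of the genes with these tiles gave no common direction. RNA calls used edgeR's quasi-likelihood test with Benjamini-Hochberg adjustment over 18931 genes. Of 10 tested coding genes with a start at a tile higher in RPC, 5 had higher and 3 lower RNA in RPC than in young Müller cells. Of 25 at a tile lower in RPC, 8 had higher and 9 lower RNA, with backgrounds of 35.9% and 24.9% of all genes. In NMDA Müller cells 4 of 13 genes at higher tiles had higher RNA and 2 lower, and of 5 at lower tiles 2 had higher RNA and 0 lower (background 30.6% and 14.3%). In aged Müller cells 3 genes at higher tiles were tested and all had higher RNA, and 6 at lower tiles had 0 calls (background 21.1% and 5.85%).

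The RNA of genes at named tiles went both ways in RPC. Zfp316, with the largest loss, had a log2 change of 0.43 ± 0.16 SE (adjusted p = 0.046 by edgeR's test, 0.11 with replicate number as a block). By the same test Dact3 was not called (-0.49 ± 0.21, adjusted p = 0.076), and Mir5046 fell (-3.93 ± 0.71, adjusted p = 0.002). Mir5046 was near the floor, at 0.551, 0.271 and 0.350 CPM in RPC and 8.42 and 2.76 in young Müller libraries. Whether its reads came from Rps6ka4, in which it lies, was not tested. Fam110a, whose start lost methylation, had 52.8, 46.9 and 49.3 CPM in RPC, 5.74, 7.91 and 6.85 in NMDA Müller, 2.55 and 2.14 in aged Müller and 7.30 and 3.55 in young Müller libraries. Its RNA was higher in RPC than in young Müller cells (log2 change 3.05 ± 0.36 SE, adjusted p = 0.00011) by edgeR's test. Ltbp3, which also lost methylation, had 33.9, 43.7 and 37.6 CPM in RPC, against 256.0 and 384.8 in young Müller libraries, and fell (log2 change -3.19 ± 0.21, adjusted p = 3e-06). Mn1 had 134.5, 127.4 and 134.1 CPM in RPC, 7.25, 3.25 and 5.12 in NMDA Müller, and 43.0 and 49.2 in young Müller libraries. Its log2 change was 1.39 ± 0.27 in RPC and -3.04 ± 0.27 in NMDA Müller cells, both called (adjusted p = 0.002 and 7e-05), whereas its tile was called in RPC and not in NMDA Müller cells.

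Tbc1d16, whose internal tile gained methylation in both, had 235.8, 220.7 and 213.1 CPM in RPC, 45.4, 35.8 and 49.4 in NMDA Müller, and 70.4 and 115.0 in young Müller libraries. Its RNA rose in RPC (log2 change 1.14 ± 0.21, adjusted p = 0.0014) and fell in NMDA Müller cells (-0.98 ± 0.20, adjusted p = 0.0046) by edgeR's test. Grb10 had 2032, 2020 and 1952 CPM in RPC, against 158.9 and 204.9 in young Müller libraries (log2 change 3.33 ± 0.17), and was not called in NMDA Müller cells (-0.22 ± 0.15), whose tile level was 38.7% ± 8.06 beside 37.2% ± 10.2 in RPC. Mest had 131.1, 139.5 and 115.4 CPM in RPC, against 63.7 and 30.2 in young Müller libraries (log2 change 1.31 ± 0.29, adjusted p = 0.0038). The 3 Pcdhga genes, whose reads the counting may split among near-identical neighbours, had lower RNA in RPC, with log2 changes of -0.96 at Pcdhga12, -1.15 at Pcdhga9 and -1.90 at Pcdhga10 (adjusted p = 0.0025, 0.0036 and 6.3e-05). Purb, with higher methylation in aged Müller cells, had 349.1 and 348.8 CPM there, against 178.8 and 214.2 in young Müller libraries (log2 change 1.02 ± 0.17, adjusted p = 0.0033). Dact3, whose internal tile was also higher in aged Müller cells, had lower RNA there (-0.77 ± 0.23, adjusted p = 0.041 by edgeR's test). That call was lost with replicate number as a block (adjusted p = 0.093). Dact3 RNA was also lower in NMDA Müller cells (-1.45 ± 0.21, adjusted p = 0.00093), where its tile was not called. Gnas was listed at 0 in both young Müller libraries and at 0.482 to 1.14 CPM in RPC, against 394.5 to 532.8 CPM in NMDA and aged Müller libraries, so no fold change is given for it. How reads of this locus were counted is unknown here, so these values cannot be read as absence of Gnas RNA. Whether the counting affected other genes in these comparisons was not tested.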

How the data were processed

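DNA methylation was measured by RRBS in 12 libraries of 4 groups and RNA in 10 libraries. The tools listed in the submitters' processing notes are methylKit 1.4.0, Bismark 0.16.3, Trim Galore 0.4.3 and HISAT2 2.0.4, and the builds are GRCm38 and mm10; the step that used each is not given in the sources used here. RRBS values are the deposited percent of methylated reads and the deposited coverage, a count of reads, at each CpG position, per the file headers, and no listed position had fewer than 10 reads. The deposited RNA values are read counts per gene symbol made by the authors; their counting tool and strand setting are likewise unknown here. Of the columns of per-sample values, 0 were left unused.

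Methylated reads were recovered as percent times coverage and summed per 1 kb tile. A quasi-binomial model with the 4 groups, overdispersion moderated across tiles and not below 1, was fitted to 36863 tiles with 5 or more common positions, and p-values were adjusted by Benjamini-Hochberg over all of them. The model was also run on simulated reads with the same setting of spread at every tile. That run cannot show how the p-values behave at tiles with more spread. The direction and the 5 points of a call came from the mean percent over positions; summed reads went the same way in all called dense tiles but differed by under 5 points in 3 to 19 of them per comparison. Reads of 1 library are PCR products without molecular identifiers, so depth reduces counting error only. RNA counts were tested with edgeR 4.0.16 (quasi-likelihood, TMM, filterByExpr, all 10 libraries), with DESeq2 1.42.0 as an alternative, in R 4.3.3; the rest ran in Python 3.11.15. Gene starts came from RefSeq tables of GRCm38.p6; where a gene had no stranded start, either end counted. Of 117560 positions in promoter windows, 99.9% fell on a CpG of the RefSeq sequence. Chromosome 18 has no sequence here.

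Named tiles were, for each comparison with young Müller cells, the 5 largest gains and 5 largest losses among called tiles whose groups did not overlap, the 5 densest, the 5 most methylated, those between 40% and 60% in all libraries, and up to 3 called tiles of each of 13 gene lists; Hoxd11 and tiles named for the smallness of a count were added after their values were seen. A named tile and a rod marker are not reported here. The members and lists were chosen with earlier results of these data known. The comparisons of RPC, NMDA and aged with young Müller cells share the young libraries. The p-values rest on the spread between these libraries, and for tiles it was moderated toward an overdispersion of 6.82 shared by all tested tiles. A tile with more overdispersion of its own, such as Mest (362.3) or Tmem267 (1003), was given less than it showed. This makes the p-value of such a tile smaller. It held for all tiles named by rule and reported here except those inside Plppr4 (5.86) and Filip1 (4.84). No pairing of the samples by replicate number was evident.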

Additional observations from a re-analysis of the deposited data

How the results depend on the processing

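The counts of called tiles were recomputed under other settings. With at least 20 reads per position, 2487 tiles were dense. Against young Müller cells RPC then had 66 called tiles (45 lower), NMDA Müller 49 (45 higher, 4 lower) and aged Müller 13 (10 higher, 3 lower), with 63 between RPC and aged, 72 between RPC and NMDA, 27 between NMDA and aged Müller cells and 117 across the 4 groups. Of those tiles 2358 were under 10%, 0 between 40% and 60% and 3 over 80% in all libraries, and the median dense-tile level was 0.615% in NMDA and 0.343% in aged Müller cells. With strands summed and 20 or more CpGs, 7078 tiles were dense. RPC had 304 called (70 higher, 234 lower), NMDA Müller 208 (158 higher, 50 lower) and aged Müller 111 (88 lower), with 273, 320 and 144 for the other comparisons and 588 in all. By that rule 6285 tiles were under 10% and 112 over 80%, and the medians were 0.889% in NMDA, 0.505% in aged and 3.64% in young Müller cells.

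A minimum of 10 points left 58 tiles in RPC (38 lower), 38 in NMDA Müller (36 higher, 2 lower) and 7 in aged Müller cells (7 higher, 0 lower), then 57, 78 and 26, and 108 in all. With no minimum there were 3497 in RPC (58 higher, 3439 lower), 3554 in NMDA Müller (3431 lower) and 3727 in aged Müller cells (31 higher, 3696 lower), then 2434, 509 and 199, and 3944 in all. Shifting tiles by 500 bp gave 7 lower in NMDA Müller cells. Limma on log2 read ratios gave 13 in aged Müller cells (8 higher, 5 lower) and 40 between NMDA and aged Müller cells, and limma on percent gave 17 in aged Müller cells (7 higher). The plain logistic model gave 21 lower in NMDA Müller cells, 44 in aged Müller cells (29 higher) and 116 between NMDA and aged Müller cells. With each library's median dense-tile level taken off, which was added after the data were seen, the lower tiles numbered 61 in RPC, 4 in NMDA Müller and 0 in aged Müller cells. The causes of these changes were not tested, apart from the fewer or more tiles each rule admits.

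Leaving out a library in turn gave 113 to 136 called tiles in RPC (25 to 40 higher, 84 to 108 lower), 82 to 117 in NMDA Müller (72 to 103 higher, 9 to 25 lower) and 16 to 54 in aged Müller cells (7 to 27 higher, 6 to 40 lower), then 108 to 129 between RPC and aged, 140 to 160 between RPC and NMDA, 49 to 77 between NMDA and aged Müller cells, and 221 to 263 in all. The 40 lower tiles in aged and the 25 in NMDA Müller cells came without the third young library. Replicate number as a block changed the counts little, to 31 higher and 94 lower in RPC, 82 and 12 in NMDA Müller and 16 and 11 in aged Müller cells. Deviations of same-numbered libraries correlated between -0.343 and 0.236, and 3 of 18 pairs were over 0.1, so no pairing by number was evident. Deviations from the means of 3 libraries cannot exclude one. Among differences at single tiles and genes, 2 changed sign. Srrm3 in aged against young Müller cells went to -0.904 points with at least 20 reads per position. The RNA log2 change of 3110070M22Rik in RPC, -1.79 and not called, ranged between -2.79 without the first and 6.89 without the second young RNA library. The causes of these 2 were not tested.

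Other single-tile and single-gene values under these settings numbered 925 with the same call, 67 that lost it and 9 that gained it. Every dense tile held at least 458 reads per library, and the precision of a difference is limited by the spread over 3 libraries a group.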
